A study of Homo sapiens with 32 samples.

Results

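The data set described here is the knockdown of SMARCA2 in A549 cells that hold no active SMARCA4. It consists of 4 of the 32 arrays of the series, found by their labels. A549 is a human lung adenocarcinoma line known to have lost SMARCA4 protein. The cells were isogenic stable lines with GFP as a control cDNA or with a SMARCA4 cDNA labelled ATPase dead. Each cDNA was profiled once with S2sh7, the short hairpin RNA against SMARCA2, and once with shLuc, a hairpin against luciferase. The comparison sets S2sh7 against shLuc within each cDNA, so the 2 pairs share no array. Each group is 1 array, and GFP and ATPase dead are different cDNAs, not repeats of one condition. The labels do not say whether these lines arose from separate infections, so the error of every A549 test is only the disagreement between the pairs of a class. With 2 pairs, an exact permutation test of a single value cannot give a two-sided p below 0.5. Error is therefore borrowed across genes with limma, and all adjusted p-values are Benjamini-Hochberg values over all genes tested. Levels are RMA intensities, a normalised brightness on a linear scale, and changes are differences of log2 intensities averaged over both pairs, S2sh7 minus shLuc.

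Other arrays of the series served for comparison. In A549, 4 arrays carried the same 2 hairpins with SMARCA4 WT or SMARCA4 BRD MUT (bromodomain mutant), called the ATPase-competent lines here. In H1299, a lung cancer line also known to lack SMARCA4, 6 arrays carried GFP with shLuc or S2sh7, 3 replicates each. All cells were grown untreated in RPMI with serum. All A549 arrays are labelled as one batch and all H1299 arrays as another, so line and batch cannot be told apart.

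SMARCA2 and SMARCA4 are the alternative ATPases of the SWI/SNF chromatin remodelling complexes, which use ATP to slide and evict nucleosomes and so keep enhancers and promoters accessible. A cell without SMARCA4 depends on SMARCA2 for this activity, which makes SMARCA2 a known vulnerability of such cancers. A SMARCA4 protein that cannot hydrolyse ATP can still enter the complex but cannot remodel.

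The hairpin reduced its target to a similar extent in both lines. A SMARCA2 probe set with the smallest adjusted p (2.36e-06, shared with another) read 292 with shLuc and 32.4 with S2sh7 in the GFP line. In the ATPase dead line it read 319 and 36.0. That left 11.1% and 11.3% of the control signal, at a level where the array is near its background (array medians were 40.1 to 41.2). With the ATPase-competent cDNAs the change on this probe set was the same (log2 -3.16 in both classes, difference -0.0016, adjusted p = 0.993). Of 7 SMARCA2 probe sets, 5 were bright enough to test and 4 fell; the fifth is dim and gave 0.0018. The SMARCA4 probe set with the smallest adjusted p had log2 levels of 4.56 with shLuc and 4.97 with S2sh7 in the GFP line, and 6.85 and 7.24 in the ATPase dead line. In the WT line it read 6.64 and 7.88, and in the BRD MUT line 6.91 and 7.91. Its level was lowest in the GFP line, which has no SMARCA4 cDNA. With S2sh7 it rose by 1.12 log2 with the ATPase-competent cDNAs and by 0.40 without active SMARCA4 (difference adjusted p = 0.00813). Of 9 SMARCA4 probe sets 7 were tested, and 2 rose without active SMARCA4; the call of the other one (0.26) was lost when either pair was left out. The part of this rise in the comparison of the classes was not tested.

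The arrays otherwise matched their label. KRT7 (5522 to 6339.7) and KRT18 (8672 to 15615), keratins of lung carcinoma epithelium, were bright on all 8 A549 arrays, as were AKR1B10, AKR1C1 and NQO1, detoxifying enzymes known to be high in A549. KRT19 and EPCAM were lower, down to 22.9 and 89.0. Of the alveolar markers, NKX2-1 (41.5 to 47.3, near the array median) and SFTPC (120 to 139) varied little. Others changed with S2sh7 in the GFP and ATPase dead lines. CAV1 (log2 change 1.12), ETV5 (1.13) and LAMP3 (1.86) rose there and LPCAT1 (-0.87) fell. PTPRC, which marks leukocytes, read 11.9 to 15.3, and the endothelial CDH5 and KDR and the fibroblast LUM and POSTN read at most 11.9, all under the array median. Other members of these lists read above it: COL1A1 311 to 360.2, PECAM1 76.1 to 94.6, CD3E 60.1 to 75.4, ITGAM 50.6 to 61.8, and CD14 and COL3A1 up to 126 and 177. Their part in the results was not tested. The 3' minus 5' difference of the ACTB control probe sets was 0.167 to 0.242 log2 over the 8 A549 arrays. Each array reads a culture as a whole, so fewer cells with a transcript and less transcript per cell cannot be told apart.

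A large share of the measured transcriptome moved. Of 14460 genes tested, 7101 (49.1%) were called at an adjusted p under 0.05, which is what called means throughout, 3812 higher (26.4%) and 3289 lower (22.7%). A change of at least 2-fold was called for 458 genes higher (3.17%) and 637 genes lower (4.41%). An unadjusted p under 0.05 was found for 8021 genes. Where a pair is left out below, one class keeps a single pair and the error comes from the other class, so fewer calls do not show a smaller change. Both pairs gave the same picture: across genes their log2 changes correlated with r = 0.951, as a description over 14460 genes that are not independent. In the GFP pair 1179 genes changed at least 2-fold, and all 1179 had the same sign in the ATPase dead pair, 935 of them (79.3%) again by at least 2-fold. Of the 1065 genes chosen in the ATPase dead pair, 1064 had the same sign in the GFP pair and 935 (87.8%) again changed by at least 2-fold. The exception was CEACAM6, a cell adhesion molecule, at 0.90 log2 in the GFP pair and -1.84 in the ATPase dead pair. The pairs differed by over 1 log2 for 20 genes (0.138%), including FABP4, a fatty acid carrier (3.05 and 1.45), and MMP7, a matrix protease (-3.08 and -4.54). These 3 genes were chosen after their values were seen.

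**Figure D1:**
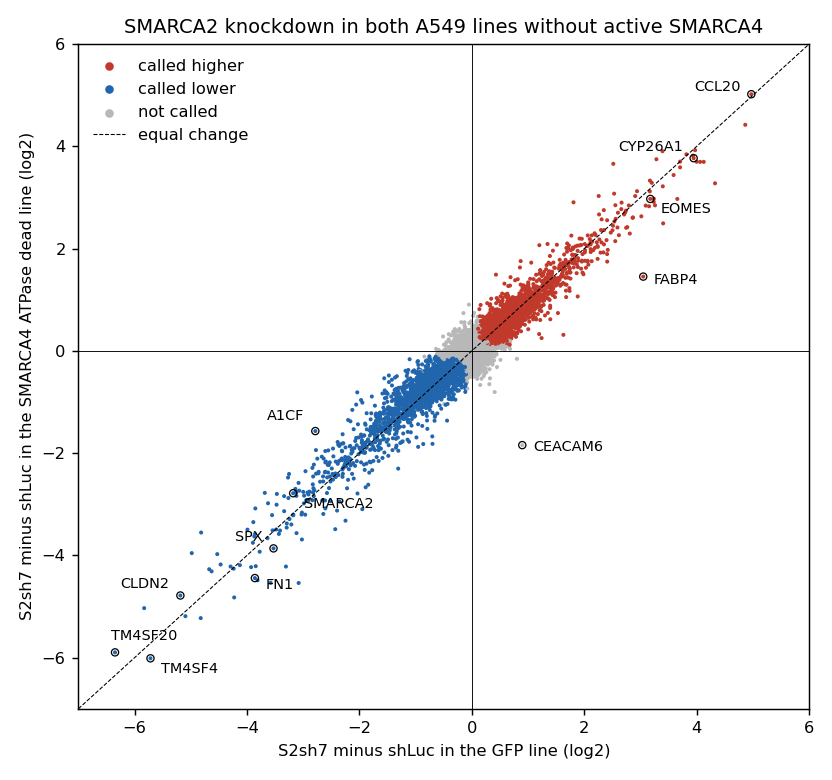
Change with S2sh7 (log2, S2sh7 minus shLuc) of each of the 14460 genes in the GFP line (x axis) and the SMARCA4 ATPase dead line (y axis); red and blue points are genes called higher and lower, grey points are not called, and the dashed line marks equal change. Points follow the line (r = 0.951), from TM4SF20 at the lower left to CCL20 at the upper right, and CEACAM6 lies off it.

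The largest losses included genes known from liver, gut and kidney epithelium. TM4SF20, a membrane protein of the tetraspanin-like L6 family, had an intensity of 2708 with shLuc and 33.2 with S2sh7 in the GFP line, and 1893 and 31.8 in the ATPase dead line. Its relative TM4SF4 read 3724 with shLuc and 70.8 with S2sh7 in the GFP line, and 3022 and 46.8 in the ATPase dead line. Both were among the bright genes of the control arrays and read at background or just above it with the hairpin (log2 change -6.12, SE 0.16, adjusted p = 4.19e-06, and log2 change -5.87, SE 0.11, adjusted p = 2.31e-06). HGD, an enzyme of tyrosine breakdown, went from 1345 to 39.3 in the GFP line and from 1263 to 34.6 in the ATPase dead line (log2 change -5.14, SE 0.100, adjusted p = 2.31e-06). CLDN2, a pore-forming tight junction protein, went from 2582 to 71.0 in the GFP line and from 1984 to 72.0 in the ATPase dead line. In each case the 2 shLuc arrays lay far above the 2 S2sh7 arrays. Named genes were chosen by their changes on these arrays, so such separation, here and below, was largely built in and adds no support. The other genes among the 15 largest falls were the sialyltransferase ST6GAL2 (-5.43), the potassium channel KCNJ16 (-5.02), the plasma proteins APOH (-4.53), RBP4 (-4.47) and CFI (-4.18), the transporters SLC23A1 (-4.47), SLC17A3 (-4.47) and SLC7A7 (-4.25), the sodium pump subunit FXYD2 (-4.26), the placental hormone INSL4 (-4.32) and the sulfatase ARSL (-4.25). A dim second RBP4 probe set gave 0.0072 log2. For genes that ended near 40, the array median, the true loss may be larger than the reading.

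Liver and foregut genes fell as a list. Of 44 listed genes 32 were bright enough to test, and 25 fell, 1 rose and 6 were not called, with 17 at least 2-fold lower and a median change of -1.26 log2 against 0.0020 over all genes tested. Counts of the other lists are likewise over the members bright enough to test. Each is to be read beside the 26.4% of all genes called higher and the 22.7% called lower. Lists and members were chosen with earlier results of these data known. The shift of a list, here and below, may therefore be in part built in and is a description only. FOXA2, a pioneer transcription factor of foregut and liver, had 254 with shLuc and 31.1 with S2sh7 in the GFP line, and 261 and 28.4 in the ATPase dead line. Both S2sh7 arrays read under the array median (log2 change -3.12, SE 0.070, adjusted p = 2.84e-06). ANXA13, an annexin of the gut, changed from 721 to 47.4 in the GFP line and from 690.1 to 36.8 in the ATPase dead line (-4.08). A1CF, the RNA-binding cofactor of APOB editing, changed from 274 to 39.7 in the GFP line and from 166 to 55.8 in the ATPase dead line (log2 change -2.18, SE 0.26, adjusted p = 8.26e-04), so its pairs differed in size, and the shLuc array of the GFP line was the highest. The fibrinogen chains FGB (-4.15), FGA (-2.90) and FGG (-1.27) fell with the fibrinogen-like FGL1 (-4.03), the urea cycle enzyme CPS1 (-2.11) and the protease inhibitor SERPINA1 (-1.95). The exception was FOXA1, a close relative of FOXA2, which rose by 0.78 (adjusted p = 7.68e-04).

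The promoters of APOH and FGB are shown because both hold the letters GTTAAT, then 2 bases of any kind, TT, 1 base of any kind and A, which resemble the binding motif of HNF1, the liver and kidney homeodomain factors. The 250 bases before the RefSeq start (GRCh38.p14) are given 5′ to 3′ on the gene's strand, APOH at chr17:66229416-66229665, minus strand, and FGB at chr4:154562730-154562979, plus strand, with the match on either strand in capitals. The match begins 49 and 57 bases before the start.
APOH: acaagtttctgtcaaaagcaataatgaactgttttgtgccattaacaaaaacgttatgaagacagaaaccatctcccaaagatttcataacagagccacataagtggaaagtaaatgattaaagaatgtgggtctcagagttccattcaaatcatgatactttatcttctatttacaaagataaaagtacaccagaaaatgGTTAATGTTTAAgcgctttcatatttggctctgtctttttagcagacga
FGB: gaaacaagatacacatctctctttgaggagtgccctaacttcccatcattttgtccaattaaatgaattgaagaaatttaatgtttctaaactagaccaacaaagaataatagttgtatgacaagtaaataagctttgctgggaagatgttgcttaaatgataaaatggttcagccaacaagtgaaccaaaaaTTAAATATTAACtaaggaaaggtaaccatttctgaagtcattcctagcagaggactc
Of genes at least 2-fold lower, 501 had a promoter in the table and 10 of them held these letters (2%), against 35 of 11549 genes tested (0.303%), 98 of all 27305 genes of the table (0.359%) and 1 of 370 genes at least 2-fold higher (0.27%). The 10 genes were APOH, C5, F13B, FBXO4, FGB, HAVCR1, MAP2K6, PAQR9, PRODH2 and ZBTB38. Of these, the complement protein C5 changed by -3.09, the kidney injury receptor HAVCR1 by -2.94 and the clotting factor subunit F13B by -2.36. A match is a description of letters, not a site.

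The largest gains included genes of secreted inflammatory proteins, transcription factors and enzymes, several of them near background in control cells. CCL20, a chemokine that attracts lymphocytes and dendritic cells, had intensities of 18.1 with shLuc and 567 with S2sh7 in the GFP line, and 12.2 and 395 in the ATPase dead line (log2 change 4.99, SE 0.20, adjusted p = 1.26e-05). CCL2, which attracts monocytes, had 230.2 with shLuc and 3517 with S2sh7 in the GFP line, and 256 and 3600.5 in the ATPase dead line (log2 change 3.88, SE 0.12, adjusted p = 5.98e-06). In both genes each S2sh7 array was over 10 times its control. BCL2A1, an inhibitor of apoptosis, changed from 68.4 to 1140.0 in the GFP line and from 99.3 to 1286 in the ATPase dead line (3.88). COXFA4L3 (older symbol C15orf48), which encodes a mitochondrial protein, changed from 26.2 to 762 in the GFP line and from 38.8 to 830.3 in the ATPase dead line (4.64). FAT4, an atypical cadherin, changed from 19.1 to 299 in the GFP line and from 20.0 to 303 in the ATPase dead line (3.95). The remaining genes of the 15 largest rises were NIBAN1 (3.91), BEX2 (3.85), the pentraxin PTX3 (3.80), PRSS35 (3.65), LRCH2 (3.65), DAW1 (3.51) and CTH, an enzyme of cysteine synthesis (3.51), besides GATA3, CYP26A1 and CYP26B1. NIBAN1, PTX3 and DAW1 read 6.50 to 10.6 on their shLuc arrays, which is background. CCL20, FAT4, LRCH2 and DAW1 were bright enough to test only on S2sh7 arrays, so the direction of their change was built in.

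**Figure D2:**
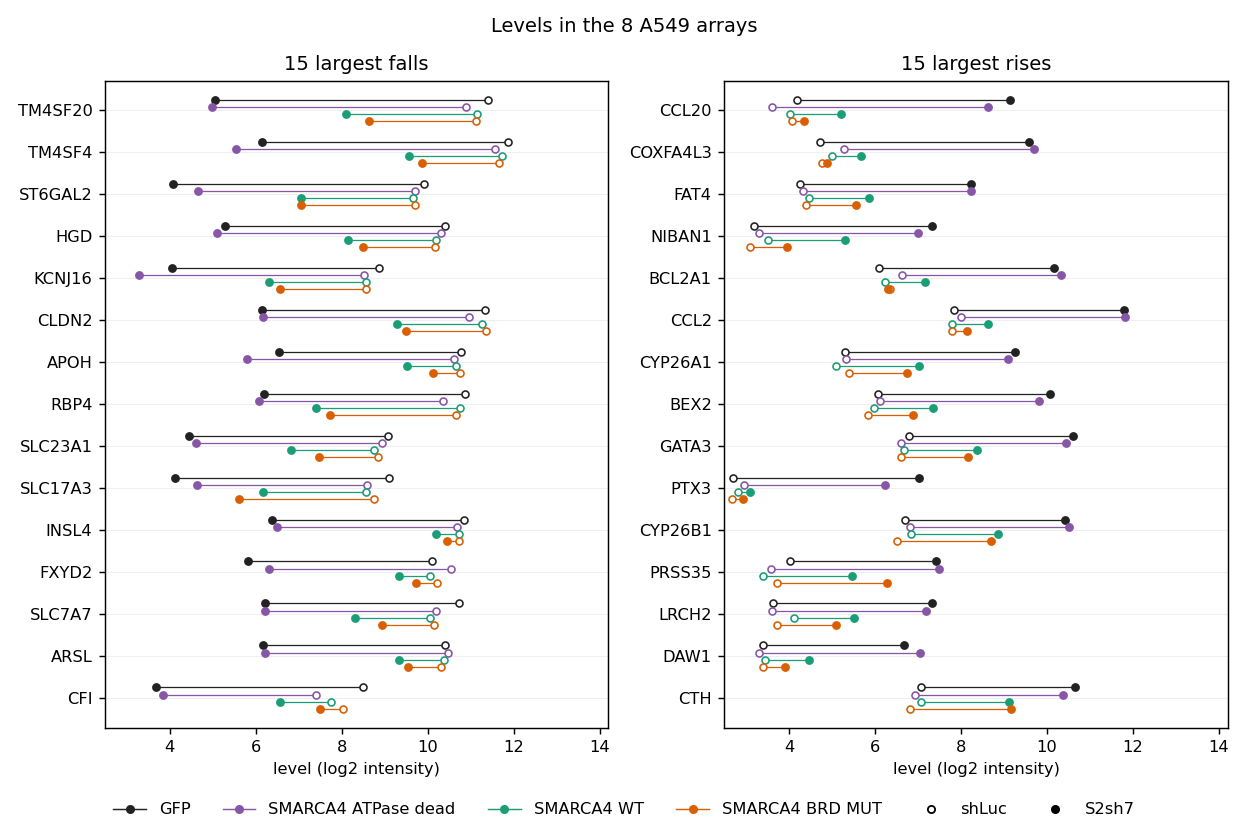
Level (log2 intensity, x axis) of the 15 genes with the largest falls (left) and the 15 with the largest rises (right) on each of the 8 A549 arrays; open points are shLuc, filled points S2sh7, and colours mark the cDNA. The shLuc points of the 4 lines lie close together, and the GFP and ATPase dead lines (black and purple) moved further than the WT and BRD MUT lines (green and orange); TM4SF20 read 33.2 and 31.8 with S2sh7 in the first and 277 and 400.5 in the second.

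Genes of retinoic acid handling moved in both directions. Retinoic acid is made from vitamin A, binds nuclear receptors at paired AGTTCA-like letters, and is cleared by the CYP26 enzymes. CYP26A1, whose gene is a textbook target of the receptors, had intensities of 39.7 with shLuc and 610.2 with S2sh7 in the GFP line, and 40.3 and 548.6 in the ATPase dead line (log2 change 3.86, SE 0.13, adjusted p = 8.55e-06). CYP26B1 changed from 104 to 1361 in the GFP line and from 112 to 1458 in the ATPase dead line, with the same log2 change in both pairs (3.70, SE 0.067). The S2sh7 arrays of both genes lay far above the shLuc arrays. The synthetic enzymes ALDH1A3 (1.61) and RDH10 (1.71) rose, as did the receptor RARB (0.56). RBP4, the carrier of retinol in blood, fell from 1871 to 73.4 in the GFP line and from 1304 to 67.5 in the ATPase dead line (log2 change -4.47, SE 0.13, adjusted p = 5.68e-06), together with RARRES1 (-3.27) and the retinol transporter STRA6 (-1.45). Of 20 tested members, 6 rose, 9 fell and 5 were not called, with a median of -0.15 (26 listed). The share called was 75%, against 49.1% of all genes. The window before the CYP26A1 start (chr10:93073643-93073892, plus strand, GRCh38.p14) is shown for its direct repeat, the letters AGTTCA repeated after 5 bases of any kind, which lie on the opposite strand and are in capitals here with their spacer, 90 bases before the start.
CYP26A1: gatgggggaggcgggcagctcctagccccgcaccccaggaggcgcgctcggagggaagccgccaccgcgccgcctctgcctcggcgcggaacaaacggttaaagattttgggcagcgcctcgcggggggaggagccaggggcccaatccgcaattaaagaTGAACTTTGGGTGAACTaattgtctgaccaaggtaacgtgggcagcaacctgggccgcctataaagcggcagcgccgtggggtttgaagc
The letters were chosen for this gene, and 3 of 27305 genes in the promoter table held them (0.011%).

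Developmental transcription factors rose more often than they fell. EOMES, a T-box factor of early mesoderm, read 55.7 with shLuc and 502 with S2sh7 in the GFP line, and 56.8 and 445 in the ATPase dead line (log2 change 3.07, SE 0.089, adjusted p = 5.28e-06). GATA3, a zinc finger factor of T cells, breast and trophoblast, read 110.2 with shLuc and 1551 with S2sh7 in the GFP line, and 97.0 and 1392 in the ATPase dead line (log2 change 3.83, SE 0.067, adjusted p = 2.31e-06). DLX2, a homeobox gene, changed from 16.0 to 201 in the GFP line and from 19.0 to 149 in the ATPase dead line (3.31), and LHX2 changed from 148 to 681 in the GFP line and from 149.8 to 720.3 in the ATPase dead line (2.23). For these 4 genes both hairpin arrays exceeded both controls. DLX2 was bright enough to test only on S2sh7 arrays, so its rise was built in. Of 31 tested, 15 rose, 8 fell and 8 were not called, with a median of 0.22. Over all genes 26.4% rose and 22.7% fell, so the share of falls in the list is near that of all genes. SOX2 (1.81) and ID4 (1.55) were among those that rose. SOX9 (-1.64), FOXQ1 (-2.06) and TBX3 (-1.11) fell. NKX2-1, the lung lineage factor, read near the array median (0.024, adjusted p = 0.82).

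Detoxifying genes of the NRF2 programme were mostly lower, some very bright ones among them. NRF2 is the transcription factor of the oxidative stress response and is known to be constitutively active in A549. GPX2, a selenium-dependent glutathione peroxidase, had 6581 with shLuc and 550.2 with S2sh7 in the GFP line, and 6366 and 274 in the ATPase dead line (log2 change -4.06, SE 0.22, adjusted p = 3.50e-05). AKR1B10, an aldo-keto reductase, had 18086 with shLuc and 4612 with S2sh7 in the GFP line, and 18117 and 3996 in the ATPase dead line (log2 change -2.08, SE 0.074, adjusted p = 9.40e-06), and AKR1C2 had 15275 with shLuc and 4355 with S2sh7 in the GFP line, and 15313 and 4003 in the ATPase dead line (-1.87). Both shLuc readings of each gene lay above both S2sh7 readings. The drug exporter ABCC3 (-3.46) and the epoxide hydrolase EPHX1 (-2.72) fell as well. Of 29 tested, 16 fell, 11 of them at least 2-fold, 7 rose and 6 were not called (median -0.36). The 7 that rose were NQO1 (0.30), TXN (0.23), TXNRD1 (0.35), SRXN1 (0.66), HMOX1 (0.79), OSGIN1 (0.37) and SLC7A11 (0.40), which are also NRF2 targets. Without the ATPase dead pair, 2 members rather than 7 were called higher.

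Matrix and epithelial genes were mostly lower. FN1, which encodes fibronectin, had 8382 with shLuc and 577 with S2sh7 in the GFP line, and 6855 and 315 in the ATPase dead line (log2 change -4.15, SE 0.13, adjusted p = 6.57e-06), so an abundant transcript dropped to a middling level. VCAN, a large proteoglycan, went from 3907 to 447 in the GFP line and from 3496 to 514 in the ATPase dead line (-2.95). Among 37 matrix genes, 19 fell (14 at least 2-fold), 5 rose and 13 were not called (median -0.31). The fibrillar collagen COL3A1 rose instead, from 17.6 to 165 in the GFP line and from 23.6 to 177 in the ATPase dead line (3.07). COL12A1 rose as well (1.90). COL3A1 was bright enough to test only on S2sh7 arrays, so its rise was built in. Among 30 junction and keratin genes, 16 fell (11 at least 2-fold), 5 rose and 9 were not called (median -0.47). KRT8 fell from 8556 to 2866 in the GFP line and from 7958 to 2815 in the ATPase dead line (-1.54), and the epithelial factor ELF3 fell from 1367 to 218 in the GFP line and from 1596 to 291 in the ATPase dead line (-2.55). The adherens junction gene CDH1 (-1.77), KRT19 (-2.28) and EPCAM (-1.36) fell too, while CLDN1 rose from 587 to 2674 in the GFP line and from 634 to 2559.9 in the ATPase dead line (2.10). Of 23 mesenchymal genes, 5 rose and 8 fell (median -0.13): TWIST1 (1.55) and ZEB2 (1.25), transcription factors of the mesenchymal state, rose, and NT5E (-1.95), S100A4 (-2.96) and TGFBR2 (-1.46) fell. The share of mesenchymal genes called was 56.5%, near the 49.1% of all genes.

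Interferon-stimulated genes, which encode antiviral proteins, also leaned lower. IFITM3, a membrane protein that blocks virus entry, had 1077 with shLuc and 188 with S2sh7 in the GFP line, and 1009 and 172 in the ATPase dead line (log2 change -2.54, SE 0.084, adjusted p = 7.02e-06). Its neighbour in function IFITM2 had 2316 with shLuc and 380.0 with S2sh7 in the GFP line, and 2097 and 248 in the ATPase dead line (-2.84); the family members are near-identical in sequence, so their probe sets may share signal. SAMD9 changed from 45.3 to 15.8 in the GFP line and from 30.1 to 10.1 in the ATPase dead line (-1.54). Of 34 tested (43 listed), 17 fell, 5 rose and 12 were not called (median -0.24). The 5 that rose were ISG20 (1.37), IRF1 (0.30), IRF7 (0.40) and the antigen processing genes TAP1 (1.68) and PSMB9 (2.10), and without the GFP pair 3 were called higher. The IFITM3 window (chr11:320861-321110, minus strand, GRCh38.p14) holds 2 matches of the letters GAAA, 2 bases of any kind and GAAA, which resemble the interferon-stimulated response element, in capitals. IFITM3 had the smallest adjusted p among the members that fell and hold a match.
IFITM3: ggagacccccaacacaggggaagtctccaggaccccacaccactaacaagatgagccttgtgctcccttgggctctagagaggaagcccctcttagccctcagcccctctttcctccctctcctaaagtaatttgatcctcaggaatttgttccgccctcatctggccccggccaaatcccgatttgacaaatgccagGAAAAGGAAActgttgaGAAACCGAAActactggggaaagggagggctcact
These letters stood in 17 of the 27 list members with a promoter in the table (63%), against 3.71% of all genes and 4.79% of the genes at least 2-fold lower.

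YAP and TAZ targets, MAP kinase feedback genes and actin genes leaned higher. YAP and TAZ are the transcriptional effectors of the Hippo pathway. LATS2, a Hippo kinase and target, had 373 with shLuc and 1146 with S2sh7 in the GFP line, and 384 and 1065 in the ATPase dead line (log2 change 1.54, SE 0.077, adjusted p = 2.72e-05). MYOF changed from 1751 to 4341 in the GFP line and from 1806 to 4507 in the ATPase dead line (1.31), and PTPN14 changed from 307 to 813 in the GFP line and from 302 to 852 in the ATPase dead line (1.45). CCN2 (1.16) and CCN1 (0.80), the usual reporters of the pathway, rose with them. Of 20 tested, 12 rose, 5 fell and 3 were not called (median 0.40), with 3 falls without the ATPase dead pair. The letters GGAATG of the TEAD factors, which YAP binds, stood in 6 of 15 promoters of the list (40%), against 14.3% of all genes. Among genes at least 2-fold higher the share was 14.1%, and in the interferon and mitosis lists it was 22.2% and 20.7%. DUSP6, a phosphatase that restrains ERK, had 199 with shLuc and 1257 with S2sh7 in the GFP line, and 185 and 1264 in the ATPase dead line (log2 change 2.71, SE 0.11, adjusted p = 1.31e-05), and PHLDA1 and the growth factor HBEGF rose by 2.01 and 1.76. Of 3 tested HBEGF probe sets, 2 had this sign. Of 21 MAP kinase feedback genes, 12 rose, 6 fell and 3 were not called (median 0.43; 0.55 in the GFP pair and 0.23 in the ATPase dead pair). TPM4 (1.30), ZYX (1.11) and MYL12A (0.88) led the actin genes, of which 11 of 19 rose and 6 fell (median 0.28).

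Immediate early genes split within a single family. FOS, a component of the AP-1 transcription factor, had 2878 with shLuc and 193 with S2sh7 in the GFP line, and 2270.5 and 168 in the ATPase dead line (log2 change -3.82, SE 0.068, adjusted p = 2.31e-06), and FOSB went from 426 to 62.4 in the GFP line and from 338 to 63.9 in the ATPase dead line (-2.59). Their relative FOSL1 rose (1.97), as did the small MAF protein MAFF, from 114 to 790.0 in the GFP line and from 90.8 to 651 in the ATPase dead line (2.82). NR4A3 rose from 54.0 to 413 in the GFP line and from 40.9 to 356 in the ATPase dead line (3.03) on its brightest probe set, and another probe set rose by 2.01 while one more changed by -1.10. Of 24 genes, 10 rose, 10 fell and 4 were not called, a share called of 83.3% against 49.1% of all genes.

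Cell division genes were lower by a small amount. CDK1, the kinase that drives entry into mitosis, had 1996 with shLuc and 1193 with S2sh7 in the GFP line, and 2068 and 1203 in the ATPase dead line (log2 change -0.76, SE 0.065, adjusted p = 2.05e-04). TOP2A, a topoisomerase of dividing cells, had 2814 with shLuc and 1708 with S2sh7 in the GFP line, and 2851 and 1482 in the ATPase dead line (log2 change -0.83, SE 0.076, adjusted p = 2.64e-04), and the spindle protein NUSAP1 went from 1230.3 to 796 in the GFP line and from 1303 to 818 in the ATPase dead line (-0.65). Both shLuc arrays were above both S2sh7 arrays for these 3 genes. Of 35 mitosis genes, 23 fell, 2 rose and 10 were not called (median -0.39; -0.26 in the GFP pair and -0.55 in the ATPase dead pair). Values lay below 0 for 29 of 35 in the GFP pair and 32 of 35 in the ATPase dead pair. CDC20, an activator of the anaphase-promoting complex, rose from 638 to 1618 in the GFP line and from 589.8 to 1202 in the ATPase dead line (log2 change 1.18, SE 0.10, adjusted p = 2.11e-04), and ECT2 rose by 0.54. Of 38 replication genes, 25 fell, 2 rose and 11 were not called (median -0.31). They included RFC3 (-0.79), POLA1 (-0.67), GINS3 (-0.64) and MCM4 (-0.62), parts of the replication fork. Without the GFP pair 15 of the 38 fell, and without the ATPase dead pair 14, with medians of -0.29 and -0.30.

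With ATPase-competent SMARCA4 the same mitosis genes lay on the other side of 0. In the WT and BRD MUT pairs 28 of 35 were called higher and 7 not called (median 0.49), and all 35 changes were above 0 in each pair. Over all genes 10.4% were called higher and 8.73% lower there. The difference between the classes was called for 32 of 35, each lower without active SMARCA4, and 11.6% of all genes had such a call. TOP2A, for example, went from 3030.4 to 4050.0 in the WT line and from 2951 to 3857 in the BRD MUT line (log2 change 0.40; difference -1.23, adjusted p = 9.87e-04). CDC20 rose in both classes (difference 0.31, adjusted p = 0.183). The count of 28 needs both ATPase-competent pairs, since it was 2 without the WT pair and 1 without the BRD MUT pair, with medians of 0.51 and 0.48. The count of differences was 31 without the GFP pair, 26 without the ATPase dead pair, 23 without the WT pair and 21 without the BRD MUT pair. For replication genes the median with competent SMARCA4 was 0.059 and 22 of 38 differences were called, and 10, 9, 5 and 8 without the GFP, ATPase dead, WT and BRD MUT pairs in turn. The median difference was -0.36 with all pairs and -0.34, -0.38, -0.35 and -0.35 in those fits, so it stayed about as large. The CDK1 window (chr10:60778081-60778330, plus strand, GRCh38.p14) is shown for its match, 161 bases before the start, to TTTGAA, the letters of the cell cycle homology region.
CDK1: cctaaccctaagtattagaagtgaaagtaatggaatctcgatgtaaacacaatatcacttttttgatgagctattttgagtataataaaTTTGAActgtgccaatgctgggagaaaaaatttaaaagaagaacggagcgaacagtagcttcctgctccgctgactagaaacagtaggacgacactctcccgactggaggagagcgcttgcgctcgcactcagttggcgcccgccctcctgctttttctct
These 6 letters stood in 15 of 29 mitosis promoters (51.7%), against 16.1% of all genes and 1 of 34 replication promoters (2.94%). Elsewhere 7 of 13 promoters of the 15 largest falls (53.8%) and 6 of 17 retinoic acid promoters (35.3%) held them too. CCAAT, often found beside them, stood in 24 of the 29 (82.8%), against 37% of all genes.

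**Figure D3:**
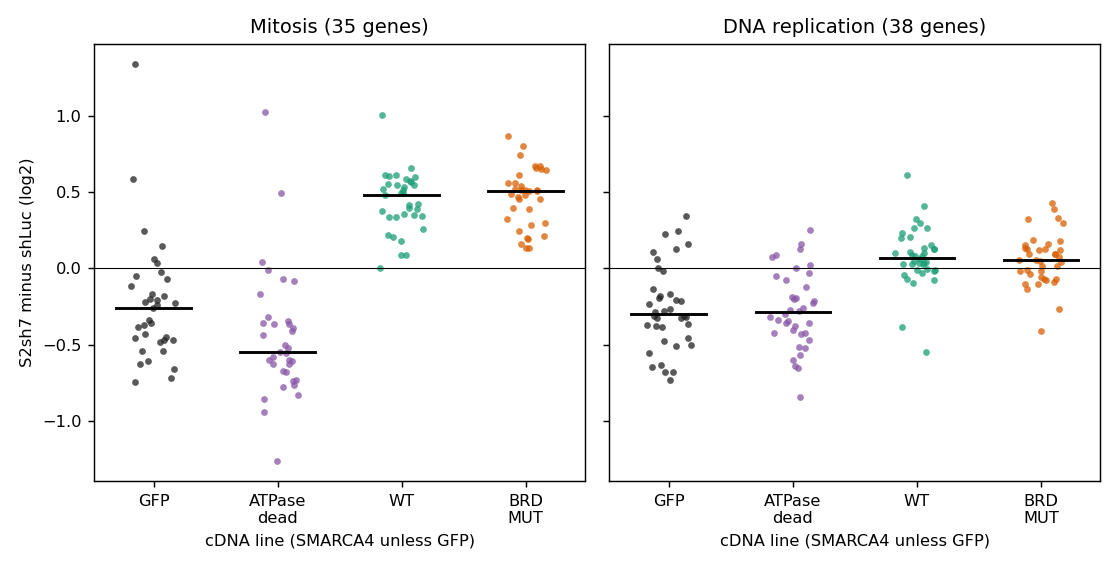
Change with S2sh7 (log2, S2sh7 minus shLuc, y axis) of 35 mitosis genes (left) and 38 replication genes (right) in each of the 4 cDNA lines (x axis); a point is a gene and the bar is the median. Mitosis medians were -0.26 and -0.55 in the GFP and ATPase dead lines and 0.48 and 0.51 in the WT and BRD MUT lines.

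Metabolic and stress lists were mixed. Of 19 cholesterol genes, 13 fell, 3 rose and 3 were not called (median -0.32). HMGCS1, an early enzyme of the pathway, changed from 475 to 181 in the GFP line and from 526 to 220.1 in the ATPase dead line (-1.32), and DHCR7, a late one, changed from 615 to 280.3 in the GFP line and from 545 to 215 in the ATPase dead line (-1.24). Without the ATPase dead pair 7 were called lower. Among 30 hypoxia and glycolysis genes, 14 fell and 8 rose (median -0.16), and the glucose transporters went opposite ways. SLC2A1 changed from 279.7 to 74.6 in the GFP line and from 335 to 93.6 in the ATPase dead line (-1.87), and SLC2A3 changed from 269 to 2411 in the GFP line and from 212 to 2127 in the ATPase dead line (log2 change 3.25, SE 0.074, adjusted p = 2.91e-06). CA12, a carbonic anhydrase, fell by 2.83, and the lipoprotein lipase inhibitor ANGPTL4 rose by 1.91. Of 32 integrated stress response genes, 12 rose and 13 fell (median 0.013), a share called of 78.1% against 49.1% of all genes. ASNS (0.75) and STC2 (0.99) rose, and XBP1 (-1.87) and VLDLR (-1.89) fell. Of 25 p53 targets, 6 rose and 9 fell (median -0.13). The share called was 60%, against 49.1% of all genes (26.4% higher, 22.7% lower). GADD45A (2.06), PERP (1.02) and PLK2 (0.92) rose and GDF15 (-1.40) fell. Of 4 tested PERP probe sets, 3 had the sign given. The count of falls was 3 without the GFP pair and 5 without the ATPase dead pair, with medians of -0.072 and -0.12.

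Lists of signalling and secreted proteins moved in both directions. The WNT feedback inhibitors AXIN2, from 449 to 115 in the GFP line and from 389 to 112 in the ATPase dead line (-1.88), RNF43 (-2.12) and ZNRF3 (-1.85) fell, and the WNT transcription factor TCF7L2 rose (1.20); over 16 genes, 3 rose and 6 fell (median -0.16), a share called of 56.2% against 49.1% of all genes. Among 24 inflammatory genes, 9 rose and 9 fell (median -0.098), a share called of 75% against the same 49.1%. CXCL8, a neutrophil attractant, fell from 832 to 86.5 in the GFP line and from 526 to 71.4 in the ATPase dead line (log2 change -3.07, SE 0.12, adjusted p = 1.23e-05), and complement C3 fell by 2.92, opposite to CCL20 and CCL2, while PLAUR, the urokinase receptor, rose by 1.85. Of 17 neuroendocrine genes, 8 rose and 4 fell (median 0.29), a share called of 70.6% against 49.1% of all genes. SPX, a secreted neuropeptide, had 550.0 with shLuc and 47.6 with S2sh7 in the GFP line, and 451 and 31.0 in the ATPase dead line (log2 change -3.70, SE 0.11, adjusted p = 6.02e-06), and DDC, which makes dopamine, fell by 3.38, while neurotensin (NTS) rose from 643 to 4816 in the GFP line and from 428 to 3488 in the ATPase dead line (2.97) and SYT1 rose by 1.58. Without the ATPase dead pair 5 were called higher.

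The other SWI/SNF subunits changed mostly by small amounts. Of 29 tested, 11 rose, 2 fell and 16 were not called (median 0.13), so the share called was 44.8%, near the 49.1% of all genes. SS18 rose from 392.3 to 869 in the GFP line and from 404 to 899 in the ATPase dead line (1.15), with PBRM1 (0.69) and BCL7C (0.67), and BCL11B fell (-1.60). Without the GFP pair 5 members were called higher and without the ATPase dead pair 6. Of 11 alveolar genes, CAV1 (1.12), ETV5 (1.13) and LAMP3 (1.86) rose, LPCAT1 (-0.87) fell and 7 were not called (median 0.021). In the leukocyte list 1 of 6 tested rose and 1 fell, CD2 (0.20) and CD14 (-1.54). In the endothelial list 1 of 4 fell, VWF (-0.19). The CD2 and VWF calls were lost when either pair was left out. In the fibroblast list 2 of 6 rose, COL3A1 (3.07) and MFAP5 (1.39). COL3A1, MFAP5 and the alveolar LAMP3 were bright enough to test only on S2sh7 arrays. Their rise was therefore built in by the filter, and their counts add no support. The shares called were 36.4% of alveolar, 33.3% of leukocyte, 25% of endothelial and 33.3% of fibroblast genes, under the 49.1% of all genes. Summed intensities cover all list members with a probe set, tested or not, in the GFP and ATPase dead lines in turn. For leukocyte markers they were 382 and 399 with shLuc and 330.3 and 313 with S2sh7. For fibroblast markers they were 559.8 and 564 with shLuc and 739 and 761 with S2sh7.

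**Figure D4:**
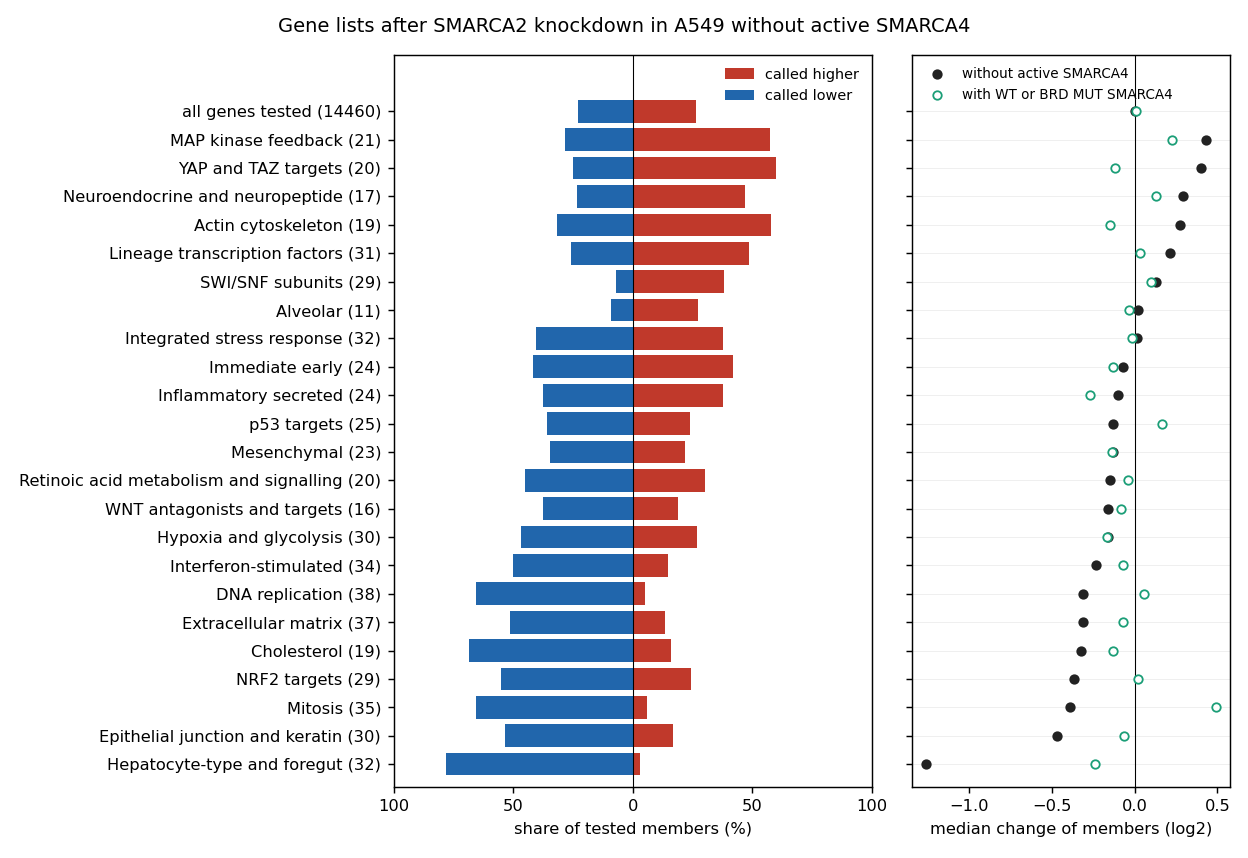
Left, share (%) of each list's tested members (number in brackets) called higher (red, to the right) or lower (blue, to the left) in the GFP and ATPase dead lines. Right, median log2 change of the members in those lines (filled) and in the WT and BRD MUT lines (open). Liver and foregut genes have the lowest median (-1.26), and mitosis genes lie at -0.39 without and 0.49 with ATPase-competent SMARCA4.

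The knockdown had a smaller effect where ATPase-competent SMARCA4 was present. In the WT and BRD MUT lines 2760 of 14460 genes were called (19.1%), 56 at least 2-fold higher (0.387%) and 118 at least 2-fold lower (0.816%). The SD of log2 changes over genes was 0.639 and 0.621 in the GFP and ATPase dead pairs and 0.311 and 0.297 in the WT and BRD MUT pairs. The test of the difference called 3254 genes (22.5%), 1570 with a more positive change without active SMARCA4 (10.9%) and 1684 with a more negative one. By at least 2-fold these were 247 (1.71%) and 403 (2.79%). Among the 458 genes at least 2-fold higher without active SMARCA4, 433 had a called difference towards a smaller change with competent SMARCA4 and 25 had none called. Among the 637 at least 2-fold lower the numbers were 564 and 73. Without the WT pair the difference was called for 358 of 458 and 493 of 637, and without the BRD MUT pair for 347 and 456. The median change that remained was 32.8% and 30.8% of that without active SMARCA4, on the log2 scale. It was alike for large changes: for genes over 3 log2 it was 33.3% (higher, n = 26) and 33.1% (lower, n = 55). These genes were chosen for a large change in one class, so a smaller one in the other is in part built in.

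Single genes kept between almost none and most of their change. GPX2 went from 6359 to 6986 in the WT line and from 6548 to 9779.8 in the BRD MUT line, so both S2sh7 arrays read above their controls (0.36, adjusted p = 0.303; difference -4.42, adjusted p = 5.44e-04). FOXA2 went from 233 to 225 in the WT line and from 236 to 227 in the BRD MUT line (-0.054; difference -3.06, adjusted p = 1.13e-04). FGL1 went from 1583 to 979 in the WT line and from 1613 to 1647 in the BRD MUT line (-0.33; difference -3.70). Of these S2sh7 readings, that of FGL1 in the WT line was the one far below its control. RBP4, in contrast, still fell from 1732 to 168 in the WT line and from 1616 to 212 in the BRD MUT line (-3.15, adjusted p = 3.47e-04), as did TM4SF20, from 2279 to 277 in the WT line and from 2237 to 400.5 in the BRD MUT line (-2.76). Of the rises, COL3A1 went from 19.0 to 95.9 in the WT line and from 12.4 to 84.6 in the BRD MUT line (2.55; difference 0.52, adjusted p = 0.0847), and EOMES only from 54.7 to 67.2 in the WT line and from 51.8 to 75.9 in the BRD MUT line (0.42; difference 2.65, adjusted p = 2.04e-04). CCL20 went from 16.2 to 37.2 in the WT line and from 16.9 to 20.3 in the BRD MUT line (0.73; difference 4.26, adjusted p = 4.51e-04). CYP26A1 lay between, from 34.1 to 130.4 in the WT line and from 41.9 to 108 in the BRD MUT line (1.65; difference 2.21).

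For liver and foregut genes 20 of 32 differences were called, all lower without active SMARCA4 (median with competent SMARCA4 -0.24). Over all genes tested the difference was called higher without active SMARCA4 for 10.9% and lower for 11.6%, beside which these counts are to be read. For NRF2 targets 17 were lower and 1 higher of 29 (median 0.020), and for YAP and TAZ targets 12 were higher and 1 lower of 20 (median -0.12). For actin genes 10 of 19 were higher, and 6 and 5 without the GFP pair and without the BRD MUT pair, where the median difference was 0.44 and 0.46 against 0.44 with all pairs. In all, 116 of the 14460 genes tested were called in opposite directions in the 2 classes with the difference called as well. That count needs both competent pairs, since it was 22 without the WT pair and 18 without the BRD MUT pair. PKIB, an inhibitor of protein kinase A, was at -0.86 without and 1.64 with competent SMARCA4 (adjusted p = 3.94e-04 and 4.37e-04), KRT222 at -1.61 and 1.18, and the BMP inhibitor BAMBI at -1.01 and 0.85. TNC, a matrix protein, was at -0.46 and 2.11, but its fall was not called without the ATPase dead pair (adjusted p = 0.448) or without the WT or the BRD MUT pair (0.0911 in each case). CXCL5 went the other way (0.88 and -1.26). These 5 genes were chosen after their values were seen.

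**Figure D5:**
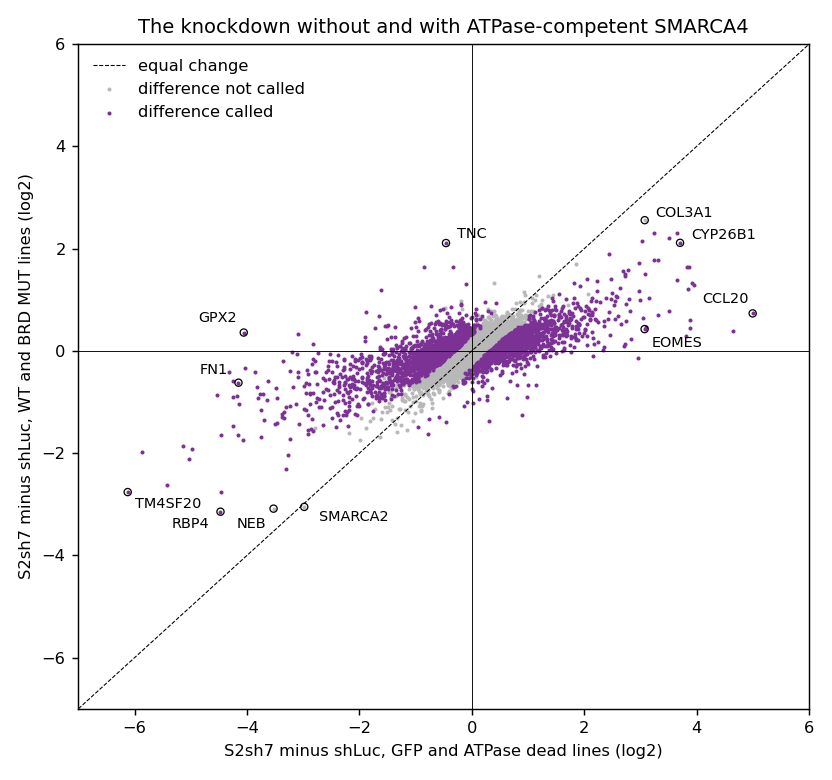
Change with S2sh7 (log2) in the GFP and ATPase dead lines (x axis) against the WT and BRD MUT lines (y axis) for 14460 genes; purple points have a called difference (3254), and the dashed line marks equal change. Most points lie closer to 0 on the y axis than on the x axis, SMARCA2 lies on the line, and GPX2 and TNC lie above 0 with competent SMARCA4.

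In H1299, with the same hairpin and GFP, some genes moved as in A549 and others the opposite way. There 4455 of 12556 genes were called (35.5%), 2003 higher (16.0%) and 2452 lower (19.5%), with 10 (0.0796%) and 56 (0.446%) at least 2-fold. Among 12151 genes tested in both lines, 806 were higher in both, which is 22.6% of the 3568 higher in A549 and 41.3% of the 1952 higher in H1299. Of all 12151 genes, 16.1% were called higher in H1299. A further 735 A549 rises (20.6%) were called lower in H1299, against 19% of all genes. For falls, 726 were shared (26.9% of 2701 in A549 and 31.4% of 2314 in H1299, where 19% of all genes fell). Another 358 (13.3%) went the opposite way, against 16.1% of all genes. Of 395 A549 rises of at least 2-fold, 124 (31.4%) were called higher in H1299 and 120 lower, against 16.1% and 19% of all genes. The median H1299 change of these rises was 0.020. Of 409 such falls, 172 (42.1%) were called lower and 52 higher (median -0.095), against 19% and 16.1% of all genes. The genes that follow were chosen for being called in both lines. EOMES in H1299 read 38.2 (SD 6.12, n = 3) with shLuc and 104 (SD 7.70, n = 3) with S2sh7 (log2 change 1.46, adjusted p = 3.39e-09). SPX read 37.5 (SD 5.21, n = 3) with shLuc and 10.7 (SD 0.93, n = 3) with S2sh7 (-1.80). MYO5B, a motor of vesicle recycling, went in A549 from 441 to 115 in the GFP line and from 446 to 122 in the ATPase dead line (-1.91) and in H1299 read 306 (SD 17.6, n = 3) with shLuc and 98.5 (SD 10.7, n = 3) with S2sh7 (-1.64). DUSP6 (0.54), TFPI2 (0.65), NEK7 (0.57), SEMA3C (0.60), SEPTIN11 (0.61), VTI1B (0.61) and RTN2 (0.46) also rose in H1299. EMP1 (-1.34), KRT80 (-1.32), MGLL (-1.34), LGALS3BP (-1.07), KRT8 (-0.81) and IFITM3 (-0.48) fell there too. GADD45A (-1.34 in H1299), HBEGF (-0.91) and CTH (-0.73) fell in H1299 and rose in A549, while VCAN (0.55) rose in H1299 and fell in A549. In H1299 29 of 30 interferon genes fell (median -0.69), and 3 of 20 YAP and TAZ targets rose and 14 fell (median -0.19). Mitosis genes had a median of 0.040 there. Of 32 liver and foregut genes tested in A549, 8 were bright enough to test in H1299. The difference between the lines was not tested, since they were fitted apart.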

How the data were processed

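Total RNA of 32 cell cultures was profiled on Affymetrix HG-U133 Plus 2.0 arrays by a 3' labelling kit, per the labels' protocols. The authors deposited 1 intensity per probe set and array, normalised with RMA, per the submitters' processing notes; the sources used here give no version. The deposited intensities are linear, although the design assumed log2 values, and were converted to log2 with no pseudocount. The small number of arrays limits precision.

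Of 54675 probe sets, 41097 carry 1 gene symbol. Each gene was read from its brightest probe set over all arrays and tested in A549 where log2 was over 5 on at least 2 arrays (H1299, at least 3). An A549 gene under this level on all shLuc arrays could be tested only if it was higher with S2sh7. Rises of such genes were therefore built in. limma 3.58.1 (R 4.3.3) fitted the 8 A549 arrays with cDNA as block and a separate S2sh7 effect per class of cDNA. It fitted the 24 H1299 arrays as group means. The A549 fit has 2 residual degrees of freedom. Genes were named as the largest changes and differences, the given markers, up to 4 members per list by adjusted p and up to 8 per direction shared with H1299. Other list members named beside them were chosen after their values were seen. Members and lists were chosen with earlier results of these data known.

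The 250 bases before RefSeq starts (GRCh38.p14) were searched on both strands for 7 motifs, of which none contains another. A gene counted once if any of its promoters held a match. Alternatives changed the filter, probe set rule, scaling, block, moderation and pairs used.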

Additional observations from a re-analysis of the deposited data

Results flagged for a closer look

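The S2sh7 effect differed between the classes of cDNA for 3254 genes by the limma contrast of the effects themselves. The largest positive differences, without minus with ATPase-competent SMARCA4, were CCL20 at 4.26 log2, COXFA4L3 at 4.25, PTX3 at 3.52, BCL2A1 at 3.44, CCL2 at 3.27, PPBP at 3.09, DAW1 at 2.74 and FAT4 at 2.67. Several of these encode secreted immune proteins, and PPBP is a platelet-type chemokine. The largest negative differences were GPX2 at -4.42, INSL4 at -3.92, TM4SF4 at -3.89, FGL1 at -3.70, FXYD2 at -3.66, APOH at -3.65, FN1 at -3.53 and CPLX2 at -3.45. CPLX2 encodes a regulator of vesicle fusion. These 16 were picked as the largest. They were called without each of the 4 pairs in turn as well, but such a fit takes its error from the class that keeps both pairs.

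Probe sets with no symbol or with several were in no comparison. Of 5135 of them bright enough to test, 1645 were called without active SMARCA4 at an adjusted p under 0.05 in a limma fit of these probe sets alone, 838 higher and 807 lower. That is 32%, against 13113 of 27037 probe sets with 1 symbol, fitted apart.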

How the results depend on the processing

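None of the 134 genes named by the stated rule turned its direction under the alternatives run. This was largely fixed in advance. All 134 were called, and all 7101 called genes had the same sign in both pairs, so leaving out a pair could not turn them. Moderation, the block and a 2-fold minimum leave the change itself as it was. Single probe sets agreed less: of 75 such genes with several tested probe sets, all had the same sign for 68. All were called in the same direction for 60. The exceptions in sign were SMARCA2, SMARCA4, TLN1, HBEGF, NR4A3, PERP and RBP4. CEACAM6, named outside the rule, has opposite signs in the pairs (0.90 and -1.84). Without active SMARCA4, 7101 genes were called, against 3096 with 1 effect over all 4 cDNA lines, 13113 probe sets when each was tested on its own, 1095 with a further 2-fold minimum and 4965 to 6837 with a pair left out. With competent SMARCA4, 2760 genes were called, against 4762 probe sets, 174 at 2-fold, 404 without the WT pair, 491 without the BRD MUT pair and 2660 without either other pair. The difference was called for 3254 genes, against 5670 probe sets, 650 at 2-fold, and 1943, 2249, 1598 and 1441 without the GFP, ATPase dead, WT and BRD MUT pairs. In H1299, 4455 genes were called, against 7364 probe sets, 66 at 2-fold and 3623 to 4127 with 1 array left out. With the replicate block it was 4337; same-numbered H1299 samples did not deviate together (r = -0.187, -0.198 and -0.0401), so the numbers are not a pairing.

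Of the 134 genes, 59 were no longer called with 1 effect over all 4 lines and 20 with a 2-fold minimum. Under the other alternatives SMARCA4, CD2 and VWF lost their call in some, each without the GFP pair and without the ATPase dead pair among them. Higher calls in H1299 were 45.0% of all calls, 54.9% after repeated quantile normalization and 38.2% after centring on array medians. Levels near the array median limit folds of dim genes.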
